A study of Mus musculus with 9 samples.

Results

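Axon guidance ligands and receptors were followed through 9 messenger RNA libraries of mouse hippocampus. The 69 genes were taken by symbol from the 57010 genes of the deposited table: 9 EphA and 5 EphB receptors, 5 ephrin-A and 3 ephrin-B ligands, 9 plexins, 20 semaphorins of classes 3 to 7, 2 neuropilins, 4 Robo receptors, 3 Slit ligands, 4 netrins, 4 Unc5 receptors and Dcc. All mice were C57BL/6J, and each of the 3 groups holds 3 libraries. CBD mice had the L5 spinal nerve tied and then received cannabidiol, a plant cannabinoid, at 5 mg/kg into the peritoneum for 15 days. SNL mice had the same ligation, used to model neuropathic pain, and received solvent. In Sham mice the L5 nerve was found but not tied, and solvent was given. The labels give neither age nor sex, and nothing in them ties each library to its own mouse. The p-values therefore cover the spread among the libraries at hand, part or all of which may be technical.

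Guidance cues steer growing axons and, in the adult brain, also act at synapses and blood vessels. Slits are secreted proteins that repel axons through Robo receptors. Secreted class 3 semaphorins bind neuropilins, which pass the signal on through plexin-A receptors, whereas the membrane-bound semaphorins of the other classes mostly bind plexins directly. Netrin-1 attracts axons through Dcc and repels them through Unc5 receptors. Ephrins are tethered to the cell surface, by a lipid anchor in the A class and a membrane-spanning segment in the B class, and signal on contact through Eph receptor tyrosine kinases. In the hippocampus these systems are known for laying out the mossy fibre, Schaffer collateral and entorhinal projections.

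Totals ran from 16972620 to 20470546 expected counts per library. Mitochondrial transcripts took 4.52%, 6.37% and 6.65% of them in CBD, 6.29%, 4.76% and 5.5% in SNL and 3.2%, 4.56% and 4.31% in Sham libraries, so every SNL library lay above every Sham library. The tissue was described with marker lists, given as CPM, expected counts scaled to library size, summed over each list. No list of cortical markers was made, so cortex in the samples was not looked for. The 9 hippocampal markers summed to between 2329.7 and 5088 CPM in CBD, between 2440.3 and 4281 CPM in SNL and between 3887 and 7338 CPM in Sham libraries, so transcripts of this list were present throughout but uneven. Camk2a and Slc17a7 made up most of each sum, at 4196 and 1356 of the 6385 CPM in Sham 1, so the sums mainly follow these genes. Transcripts of 12 hypothalamic markers summed to 412 CPM in CBD 1, 316 CPM in SNL 1 and 68.4 CPM in SNL 2, and to at most 10.7 CPM in the other 6 libraries. Among these, Agrp, Hcrt, Otp, Oxt and Sim1 were at 0 in some libraries, and no marker of any list was at 0 in all of them. The 18 thalamic and habenular markers summed to between 834 and 1159.7 CPM in CBD, between 869 and 2227 CPM in SNL and between 526 and 769.7 CPM in Sham libraries. In bulk tissue, fewer cells of a type and less RNA per cell cannot be told apart.

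**Figure D1:**
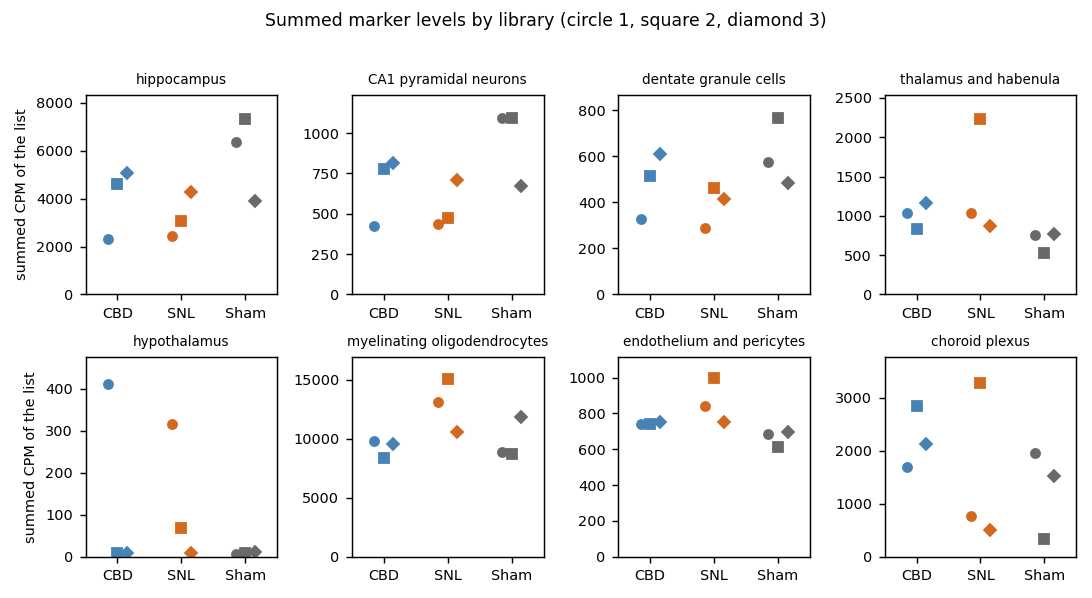
Summed level of 8 marker lists (CPM, vertical axes from 0) in each library of the CBD, SNL and Sham groups; each point is 1 library, numbered by its shape. Hypothalamic transcripts stand out in CBD 1, at 412 CPM, and in SNL 1, at 316 CPM, and the hippocampal sums of Sham 1 and Sham 2 lie above those of the other 7 libraries.

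Levels of the genes against each other were set per kilobase of the longest annotated transcript. The ephrin Efnb3 (ENSMUSG00000003934) led, at 54.8 ± 12.2 CPM per kilobase in CBD, 61.3 ± 6.85 in SNL and 65.4 ± 4.51 in Sham libraries (SD, n = 3 each). Sema7a, a lipid-anchored semaphorin, followed at a mean of 40.8 over the 9 libraries, then Epha4, an Eph receptor that binds ephrins of both classes, at 38.8, Sema6b at 31.4, Slit1 at 31.1 and the netrin receptor Unc5a at 22.5 CPM per kilobase. The ranges over libraries of neighbours in this order overlapped, from 46.0 to 70.5 for Efnb3 and from 29.6 to 57.7 for Sema7a. Plxna1 was the highest plexin-A receptor at 15.5, Nrp1 and Nrp2 stood at 12.5 and 9.97, and among the Robo receptors Robo2 led at 8.39 CPM per kilobase. At the low end were Sema3a at 0.805, Epha2 at 0.423, Epha1 at 0.292 and Efna4 at 0.238 CPM per kilobase. Efna4 had at most 11 expected counts in any library and did not pass the filter on low counts, which left 68 genes for testing. The order depended on the length used: with the median length over a gene's transcripts, 6 of the first 10 genes stayed among the first 10.

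**Figure D2:**
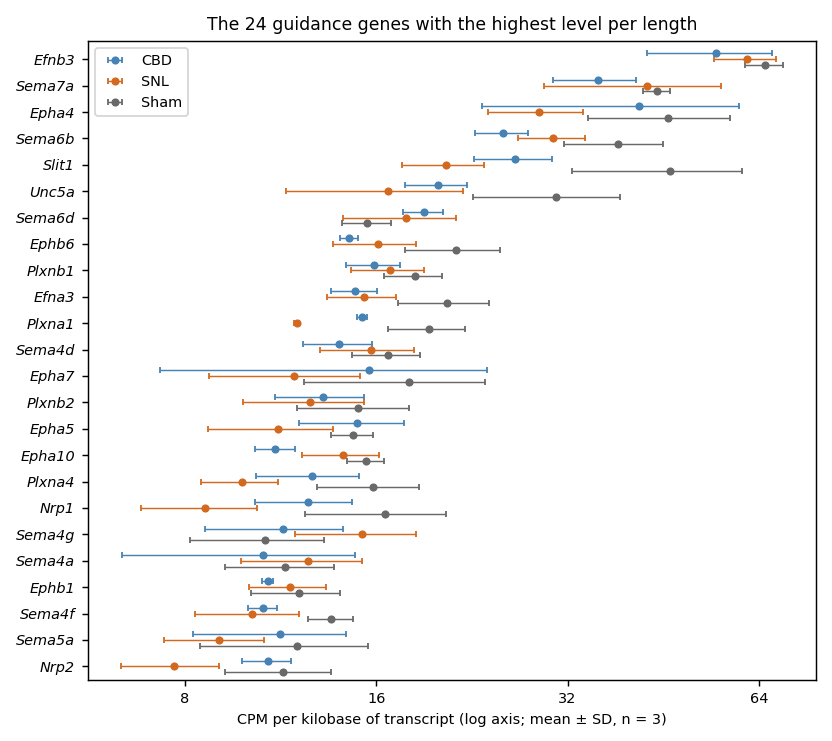
The 24 guidance genes with the highest level per transcript length, ordered down the page; points are group means of CBD, SNL and Sham libraries in CPM per kilobase (log axis) and bars are SD (n = 3). Efnb3 is highest, at 54.8 in CBD, 61.3 in SNL and 65.4 in Sham libraries, and for Slit1 the SNL mean of 20.6 lies well to the left of the Sham mean of 46.3.

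Ligation without cannabidiol was compared with sham surgery. Transcripts of all 3 Slits, both neuropilins and 3 of the 4 plexin-A receptors stood lower in SNL than in Sham libraries. So did Robo1, Unc5a, Dcc and Ephb2, and the log2 fold changes of these genes ran from -1.17 to -0.44. Robo2, Epha6, Ephb6, Efna3, Sema3e, Sema4f, Sema6b and Ntn5 were lower too, from -1.22 for Ntn5 to -0.34 for Sema6b. The membrane semaphorins Sema6a and Sema4g, the ephrin Efna1 and the receptors Ephb4, Epha8 and Epha1 stood higher, from 0.43 for Ephb4 to 1.38 for Epha1. None of these differences passed the adjusted test: at an adjusted p under 0.05, edgeR's quasi-likelihood test called 0 of the 68 genes and 0 (0%) of all 17967 genes tested. The smallest adjusted p among the guidance genes was 0.160, for Plxna1. Log2 fold changes were below 0 for 46 genes (67.6%, beside 48.4% of all genes) and above 0 for 22 (32.4%, beside 51.6%). An unadjusted p under 0.05 was reached by 20 of the 68 genes (29.4%) that were lower in SNL, beside 7.96% of all genes tested, and by 6 (8.82%) that were higher, beside 5.83%. The groups did not overlap for 16 genes that were lower in SNL (23.5%, beside 9.81% of all genes) and for 4 that were higher (5.88%, beside 7.94%). The median log2 fold change was -0.18 over the 68 genes and 0.01 over all genes tested. DESeq2 called 7 genes, all lower in SNL: Slit1, Slit3, Nrp1, Plxna1, Plxna4, Unc5a and Ephb2, which is 10.4% of the 67 guidance genes it gave an adjusted p. Of all genes with one it called 2.34%, of which 1.65% lower and 0.690% higher.

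Other transcripts moved with these values. All 9 hippocampal, all 7 CA1 and all 10 dentate granule markers had lower fitted values in SNL than in Sham, with a median log2 fold change of -0.84, -0.77 and -0.70 in that order, while all 18 thalamic and habenular, all 11 myelin and 15 of the 16 endothelial and pericyte markers were higher. Of 7 CA3 and mossy cell markers, 5 were lower and 2 higher (median -0.54). The hippocampal list shares Wfs1 and Fibcd1 with the CA1 list, Prox1 and C1ql2 with the dentate list and Iyd with the CA3 list. These counts are therefore not separate. All 11 hypothalamic markers tested (median 1.57) and 11 of 12 choroid plexus markers (0.26) were higher in SNL too. The hypothalamic sum of SNL 3, 9.19 CPM, lay inside the Sham range of 7.29 to 10.7 CPM. The hippocampal sum of Sham 3, 3887 CPM, lay inside the SNL range of 2440.3 to 4281 CPM, and Sham 3 was also the lowest Sham library for Slit1, Slit3, both neuropilins, Plxna1, Plxna2, Plxna4 and Unc5a. A fit without SNL 1, SNL 2 and CBD 1 leaves 1 SNL library, which is then assumed to vary like the other groups. In it, 8 genes (11.8%) were lower at an unadjusted p under 0.05, beside 3.42% of all genes, and 0 were higher, beside 3.45%. With offsets for transcript GC content and length the counts were 13 lower (19.1%, beside 6.83%) and 9 higher (13.2%, beside 6.66%), and the median was -0.05. The guidance genes have longer and GC-richer transcripts than the genes tested as a whole, with medians of 5019 against 3220 bases and 56.0% against 49.3% GC. The part of tissue composition, or of the mitochondrial share, in these differences was not tested.

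Cannabidiol after ligation was compared with ligation alone. Robo1 and Robo2, Dcc and Unc5c, both neuropilins, Plxna1 and Plxna2, Slit2, Sema3d and Epha5 stood higher in CBD than in SNL libraries, with log2 fold changes from 0.34 to 0.67, and Ephb4, Epha8, Epha10, Efna2, Sema6c and Plxnb3 stood lower. At an adjusted p under 0.05 edgeR called 0 of the 68 genes and 0 (0%) of the 17967, and the smallest adjusted p of a guidance gene was 0.306. Log2 fold changes were above 0 for 37 genes (54.4%, beside 49.9% of all genes) and below 0 for 31 (45.6%, beside 50.1%). With an unadjusted p under 0.05, 11 genes (16.2%) were higher in CBD, beside 6.50% of all genes, and 6 (8.82%) were lower, beside 7.20%. The groups did not overlap for 8 genes that were higher (11.8%, beside 9.18%) and 6 that were lower (8.82%, beside 10.1%), so these shares are near the background. The median log2 fold change was 0.06 over the guidance genes and -0.00 over all genes. DESeq2 called Robo1 and Dcc higher, 3.23% of the 62 genes it gave an adjusted p. Of all genes with one it called 1.30%, of which 0.740% higher and 0.557% lower. With GC and length offsets 4 genes were higher (5.88%, beside 2.48%) and 3 lower (4.41%, beside 4.79%). Robo2 then went from 0.47 to 0.18, Epha5 from 0.41 to 0.12 and Slit2 from 0.60 to 0.35, while Plxna1 stayed at 0.34. Across the genes with a transcript length, the log2 fold change of CBD against SNL ran with transcript GC content (Spearman's rho -0.44) and length (0.36). These rho values describe genes that share their libraries. Without the 3 libraries with hypothalamic transcripts 6 were higher (8.82%, beside 4.36%) and 0 lower, beside 6.59%. Of the marker lists, the 11 myelin genes and 15 of the 16 for endothelium and pericytes had log2 fold changes below 0 in this comparison, as did 17 of 18 thalamic and habenular markers (median -0.43) and 9 of 10 microglial markers (median -0.29). Fold changes were above 0 for 7 of 9 hippocampal and 11 of 12 choroid plexus markers (median 0.47). Their part in these differences was not tested.

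The third comparison set CBD against Sham. It shares its libraries with both others, so its values are given beside theirs and not as separate support. Sema6c, Sema6b, Ephb6, Epha10, Ephb2, Slit1, Efna3 and Plxna1 stood lower in CBD than in Sham libraries, with log2 fold changes from -0.81 to -0.35, and Sema3a and Unc5d stood higher. At an adjusted p under 0.05 edgeR called 0 of 68 genes and 0 (0%) of 17967, with a smallest adjusted p of 0.213 among the guidance genes. Log2 fold changes were below 0 for 46 genes (67.6%, beside 49.9%) and above 0 for 22 (32.4%, beside 50.1%). With an unadjusted p under 0.05, 11 (16.2%) were lower in CBD, beside 8.87% of all genes, and 2 (2.94%) were higher, beside 7.41%. The groups did not overlap for 11 genes that were lower (16.2%, beside 11.1%) and 2 that were higher (2.94%, beside 10.6%), with a median of -0.12 over the guidance genes and 0.00 over all genes. DESeq2 called 6 genes lower, Sema6b, Sema6c, Slit1, Ephb2, Ephb6 and Epha10, which is 9.52% of the 63 it gave an adjusted p. Of all genes with one it called 3.07%, of which 2.12% lower and 0.953% higher. With GC and length offsets 3 genes were lower (4.41%, beside 4.51%) and 1 was higher (1.47%, beside 2.88%), which is near the background. Across the genes with a transcript length, the log2 fold change of CBD against Sham ran with transcript GC content (Spearman's rho -0.56, a description over genes that share their libraries). Without the 3 libraries with hypothalamic transcripts 17 genes were lower (25.0%, beside 9.80%) and 0 higher, beside 8.19%. That fit keeps only CBD 2 and CBD 3 in the CBD group, the most alike of all pairs of libraries. Its count is therefore not read as a clearer difference. In the main fit, values of 7 of 9 hippocampal markers were lower and of 16 of 18 thalamic and habenular markers higher in CBD than in Sham. All 12 choroid plexus markers (median log2 fold change 0.64) and all 11 hypothalamic markers tested (2.91) were higher too, and 9 of 10 microglial markers (-0.37) were lower. The hypothalamic difference rested on CBD 1. That list summed to 412 CPM in CBD 1, to 8.05 and 7.99 CPM in CBD 2 and CBD 3, and to 7.29 to 10.7 CPM in Sham libraries. The part of these transcripts in the differences was not tested.

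**Figure D3:**
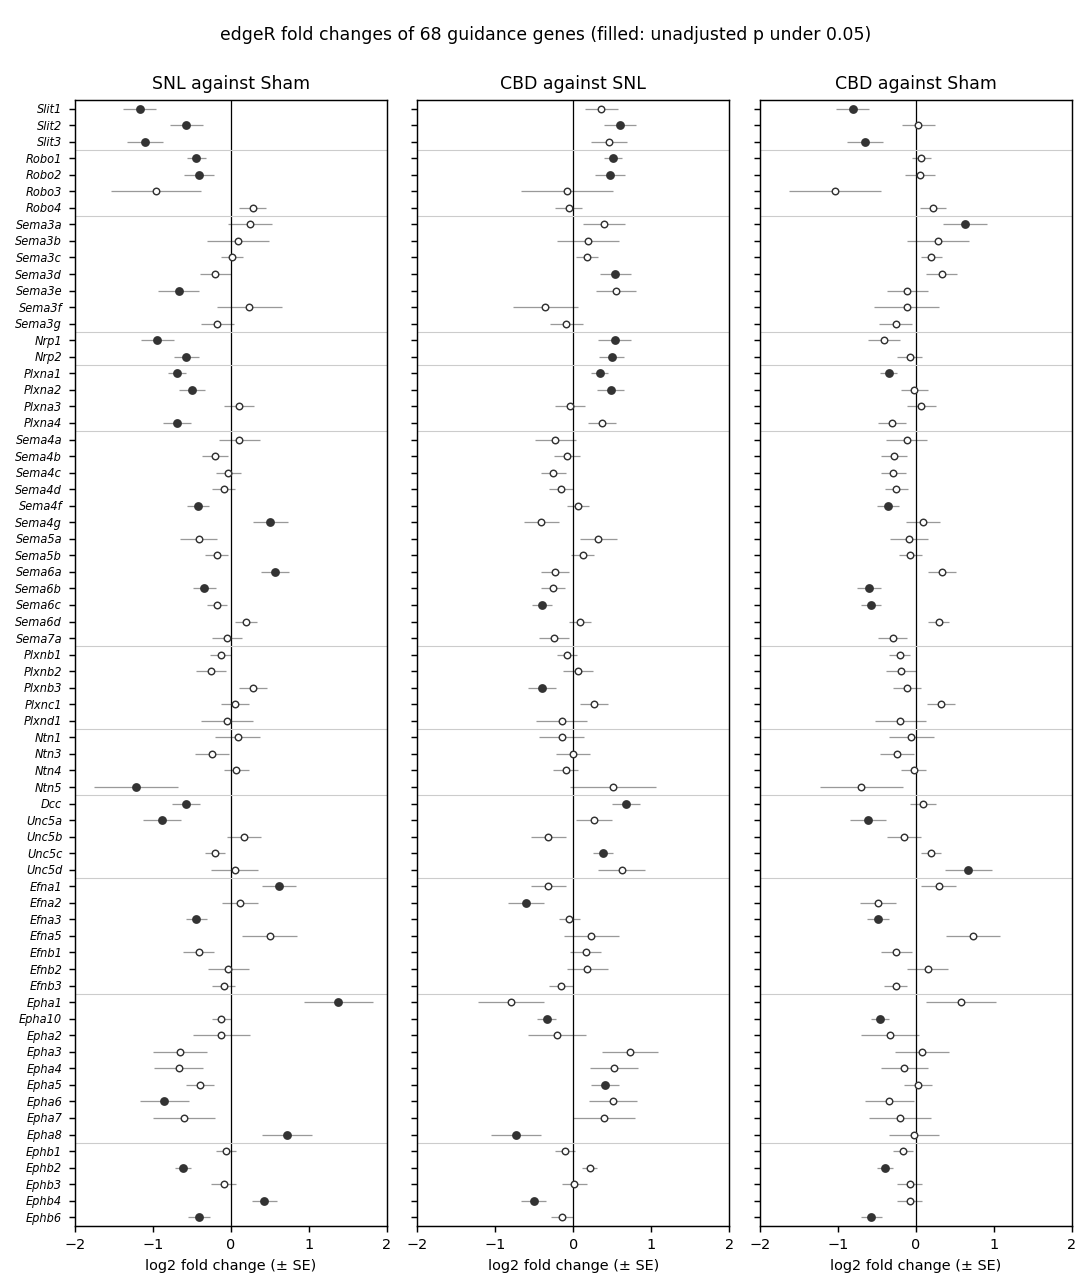
Fitted log2 fold change (horizontal axes, points with SE bars) of the 68 tested genes, by role down the page, for SNL against Sham, CBD against SNL and CBD against Sham; filled points have an unadjusted p under 0.05 and no point passed the adjusted test. In the left panel the 3 Slits lie between -1.17 and -0.57 and the filled plexin-A points between -0.69 and -0.50.

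Transcripts of the 3 Slit ligands were lower in every SNL library than in any Sham library. Slit1 (ENSMUSG00000025020), a repellent made by neurons, had 129, 150.4 and 171 CPM in CBD, 105, 109 and 137 CPM in SNL and 289.9, 324 and 175 CPM in Sham libraries. Every SNL and every CBD library lay below every Sham library, though Sham 3 was only a little above the highest CBD library. The log2 fold change was -1.17 (SE 0.21, edgeR adjusted p = 0.193) for SNL against Sham, -0.81 (SE 0.21, adjusted p = 0.213) for CBD against Sham and 0.36 (SE 0.21, adjusted p = 0.473) for CBD against SNL. Slit3 (ENSMUSG00000056427) had 28.3, 33.8 and 35.6 CPM in CBD, 16.5, 26.3 and 28.3 CPM in SNL and 60.0, 57.5 and 35.5 CPM in Sham libraries. SNL and Sham did not overlap, and CBD 3 and Sham 3 were almost level. Slit3 differed by -1.10 on the log2 scale (SE 0.23, adjusted p = 0.210) for SNL against Sham. Slit2 (ENSMUSG00000031558) had 43.2, 36.4 and 37.5 CPM in CBD, 28.9, 16.2 and 32.1 CPM in SNL and 37.6, 39.7 and 37.2 CPM in Sham libraries. The SNL libraries were the low ones against both other groups, SNL 2 most of all, and CBD and Sham overlapped. Slit2 differed by -0.57 (SE 0.21, adjusted p = 0.287) for SNL against Sham and by 0.60 (SE 0.21, adjusted p = 0.312) for CBD against SNL. Without SNL 2 these were -0.32 and 0.35, and without the 3 libraries with hypothalamic transcripts -0.24 and 0.20.

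In the Robo family, Robo1 (ENSMUSG00000022883) had 47.0, 52.7 and 62.6 CPM in CBD, 36.2, 38.2 and 39.5 CPM in SNL and 49.9, 49.1 and 55.3 CPM in Sham libraries. All SNL libraries lay below all others, while CBD and Sham overlapped. Robo1 differed by 0.51 (SE 0.12, adjusted p = 0.306) for CBD against SNL, where DESeq2's adjusted p was 0.0309, and -0.44 (SE 0.12, adjusted p = 0.227) for SNL against Sham. Robo2, its closest relative in neurons, had 58.6, 89.2 and 93.8 CPM in CBD, 54.3, 50.4 and 69.8 CPM in SNL and 76.2, 86.9 and 69.4 CPM in Sham libraries, with overlap between each pair of groups. Robo3 (ENSMUSG00000032128), known for letting commissural axons cross the midline, had 3.57, 32.2 and 36.3 CPM in CBD, 24.0, 29.0 and 23.4 CPM in SNL and 63.6, 53.7 and 30.8 CPM in Sham libraries. CBD 1 stood far below every other library, with 66 expected counts where CBD 2 and CBD 3 had 623 and 627. SNL lay below Sham throughout, yet the log2 fold change of -0.96 had an SE of 0.58 (adjusted p = 0.489). Robo4, the endothelial receptor of the family, ran from 8.22 to 10.2 CPM in CBD, from 8.13 to 11.7 CPM in SNL and from 7.48 to 9.03 CPM in Sham libraries, and its groups overlapped.

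Both neuropilins were lower in SNL than in Sham at an unadjusted p under 0.05. Nrp1 (ENSMUSG00000025810), the coreceptor of Sema3a, had 37.0, 46.6 and 52.8 CPM in CBD, 30.3, 25.5 and 38.4 CPM in SNL and 58.9, 76.0 and 46.0 CPM in Sham libraries. SNL and Sham did not overlap, and CBD overlapped with both. The log2 fold change was -0.94 (SE 0.21, adjusted p = 0.210) for SNL against Sham and 0.53 (SE 0.21, adjusted p = 0.327) for CBD against SNL. Nrp2 (ENSMUSG00000025969), the coreceptor of Sema3f, had 71.6, 66.6 and 79.3 CPM in CBD, 48.9, 44.3 and 61.8 CPM in SNL and 84.5, 85.9 and 60.1 CPM in Sham libraries. Here CBD lay above SNL in every library, and SNL 3 just exceeded Sham 3. Nrp2 differed by -0.57 on the log2 scale (SE 0.16, adjusted p = 0.232) for SNL against Sham and by 0.49 (SE 0.16, adjusted p = 0.309) for CBD against SNL. Without the 3 libraries with hypothalamic transcripts Nrp2 stood at -0.30 and 0.24 in that order, and Nrp1 at -0.64 for SNL against Sham.

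The plexin-A receptors carry the signal of the neuropilin complexes. Plxna1 (ENSMUSG00000030084) had 135, 139 and 138 CPM in CBD, 108, 107 and 109 CPM in SNL and 191, 187 and 147 CPM in Sham libraries. The 3 groups were fully separated, with SNL lowest and CBD between, and the replicates of CBD and of SNL were close. The log2 fold change was -0.69 (SE 0.11, adjusted p = 0.160) for SNL against Sham, with a DESeq2 adjusted p of 4.48e-05, 0.34 (SE 0.11, adjusted p = 0.306) for CBD against SNL and -0.35 (SE 0.11, adjusted p = 0.217) for CBD against Sham, the last being -0.17 with GC and length offsets. Plxna4 (ENSMUSG00000029765) had 130.3, 174 and 189 CPM in CBD, 106, 136 and 138 CPM in SNL and 203, 241 and 167 CPM in Sham libraries. Only SNL and Sham were apart, at a log2 fold change of -0.69 (SE 0.18, adjusted p = 0.224). Plxna2 (ENSMUSG00000026640), which guides mossy fibres together with Sema6a, had 78.0, 103 and 113 CPM in CBD, 65.5, 60.5 and 85.2 CPM in SNL and 109.7, 102 and 86.5 CPM in Sham libraries. SNL lay below Sham, narrowly so at SNL 3 and Sham 3, and CBD overlapped with both. The log2 fold change was -0.50 (SE 0.17, adjusted p = 0.269) for SNL against Sham and 0.48 (SE 0.17, adjusted p = 0.312) for CBD against SNL. Without the 3 libraries with hypothalamic transcripts Plxna2 stood at -0.22 for SNL against Sham, and with GC and length offsets at 0.29 for CBD against SNL. Plxna3 overlapped between all groups, with a log2 fold change of 0.11 (SE 0.19, adjusted p = 0.829) for SNL against Sham.

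The secreted class 3 semaphorins, the ligands of these complexes, showed no common direction: for SNL against Sham 4 of 7 had a log2 fold change above 0 and 3 below, with a median of 0.02. Sema3e, which binds Plxnd1 without a neuropilin, had 25.3, 47.5 and 60.7 CPM in CBD, 26.9, 29.7 and 34.2 CPM in SNL and 46.7, 56.4 and 41.2 CPM in Sham libraries. SNL lay below Sham, at -0.67 (SE 0.26, adjusted p = 0.308), and CBD spread over both. Sema3a, the growth-cone collapsing ligand of Nrp1, had 8.45, 5.11 and 4.29 CPM in CBD, 3.79, 4.42 and 5.42 CPM in SNL and 4.59, 3.64 and 3.26 CPM in Sham libraries. The groups overlapped, and CBD 1, a library with hypothalamic transcripts, was the high one. Its log2 fold change was 0.63 (SE 0.28, adjusted p = 0.293) for CBD against Sham and 0.30 without the 3 libraries with hypothalamic transcripts. Sema3d had 10.7, 8.51 and 8.22 CPM in CBD, 7.35, 5.68 and 5.90 CPM in SNL and 5.97, 8.80 and 7.04 CPM in Sham libraries. CBD lay above SNL in all libraries, at 0.54 (SE 0.20, adjusted p = 0.315), and at 0.28 with GC and length offsets.

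Netrin signalling was represented by 4 ligands and 5 receptors. Unc5a (ENSMUSG00000025876), a repulsive netrin receptor, had 71.4, 89.4 and 78.9 CPM in CBD, 49.6, 60.5 and 89.6 CPM in SNL and 147, 134 and 86.7 CPM in Sham libraries. SNL 3 and Sham 3 crossed, and the other libraries of those groups were far apart. Its log2 fold change was -0.88 (SE 0.24, adjusted p = 0.227) for SNL against Sham and -0.44 without the 3 libraries with hypothalamic transcripts. Dcc (ENSMUSG00000060534), the attractive receptor, had 35.2, 33.6 and 30.4 CPM in CBD, 24.6, 15.1 and 22.9 CPM in SNL and 26.9, 34.9 and 31.2 CPM in Sham libraries. SNL was lowest in all its libraries, SNL 2 most of all, and CBD and Sham overlapped. The log2 fold change was 0.67 (SE 0.18, adjusted p = 0.306) for CBD against SNL, where DESeq2 gave an adjusted p of 0.0495, and -0.57 (SE 0.18, adjusted p = 0.250) for SNL against Sham. With GC and length offsets Dcc stood at 0.40 for CBD against SNL, and without SNL 2 at -0.38 for SNL against Sham. Unc5c had 55.9, 51.1 and 60.8 CPM in CBD, 37.7, 50.7 and 40.1 CPM in SNL and 44.7, 54.3 and 48.5 CPM in Sham libraries. CBD was above SNL throughout by a small margin at CBD 2 and SNL 2, at 0.38 (SE 0.13, adjusted p = 0.312), and at 0.13 with GC and length offsets.

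Unc5d, a further member of the repulsive receptors, had 59.4, 34.2 and 25.1 CPM in CBD, 31.0, 17.7 and 28.5 CPM in SNL and 22.7, 22.1 and 29.7 CPM in Sham libraries. CBD 1 set it apart, and the log2 fold change of CBD against Sham, 0.67 (SE 0.30, adjusted p = 0.306), was 0.26 without the 3 libraries with hypothalamic transcripts. Of the ligands, Ntn1 had 25.8, 14.4 and 12.7 CPM in CBD, 21.3, 18.9 and 18.5 CPM in SNL and 14.2, 14.7 and 26.4 CPM in Sham libraries. The 3 groups overlapped, with a log2 fold change of 0.09 (SE 0.29, adjusted p = 0.915) for SNL against Sham. Ntn5 had an unadjusted p of 0.0472 for SNL against Sham, with 0.421 to 2.50 CPM in SNL and 1.94 to 4.08 CPM in Sham libraries, which overlapped.

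Slit3, Nrp1 and Unc5a are the genes called by DESeq2 in SNL against Sham for which a promoter is shown, so that the GC-rich letters before their starts can be seen. Each runs over the 250 bases before the annotated start (RefSeq, build GRCm38.p6), all on the plus strand: chr11:35121206-35121455 for Slit3, chr8:128358823-128359072 for Nrp1 and chr13:54949161-54949410 for Unc5a. Capitals mark the Sp and Klf box, GGGCGG or its reverse complement CCGCCC, which Sp1-type zinc finger proteins are known to bind.
Slit3: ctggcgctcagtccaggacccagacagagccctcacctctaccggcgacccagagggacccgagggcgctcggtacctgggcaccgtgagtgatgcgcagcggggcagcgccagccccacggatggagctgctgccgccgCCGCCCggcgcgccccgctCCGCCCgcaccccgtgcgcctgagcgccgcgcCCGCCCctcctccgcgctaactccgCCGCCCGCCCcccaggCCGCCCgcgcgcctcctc
Nrp1: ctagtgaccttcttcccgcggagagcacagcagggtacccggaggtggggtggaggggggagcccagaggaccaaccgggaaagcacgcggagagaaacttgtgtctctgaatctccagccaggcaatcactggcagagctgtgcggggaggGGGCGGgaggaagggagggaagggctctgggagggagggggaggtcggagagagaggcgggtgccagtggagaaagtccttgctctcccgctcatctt
Unc5a: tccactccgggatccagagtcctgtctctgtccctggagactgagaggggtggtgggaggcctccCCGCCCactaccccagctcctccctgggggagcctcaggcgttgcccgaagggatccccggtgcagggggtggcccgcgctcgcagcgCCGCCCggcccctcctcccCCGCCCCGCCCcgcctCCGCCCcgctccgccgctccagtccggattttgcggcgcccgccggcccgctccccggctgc
Overlapping matches counted, Slit3 held 6 boxes, Unc5a 5 and Nrp1 1. Of the 69 genes, 59 had an entry, 75 windows in all, and 53 of these windows (70.7%) held the box, beside 32.7% of all 32851 windows. A TATAAA box was found in 2.67% of the guidance windows and 12.4% of all, the half-site TGACG in 9.33% and 17.8%, and the E-box CACGTG in 5.33% and 6.02%, each searched on both strands. The median number of CG steps was 15 per guidance window and 6 over all windows. A match here describes letters only.

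**Figure D4:**
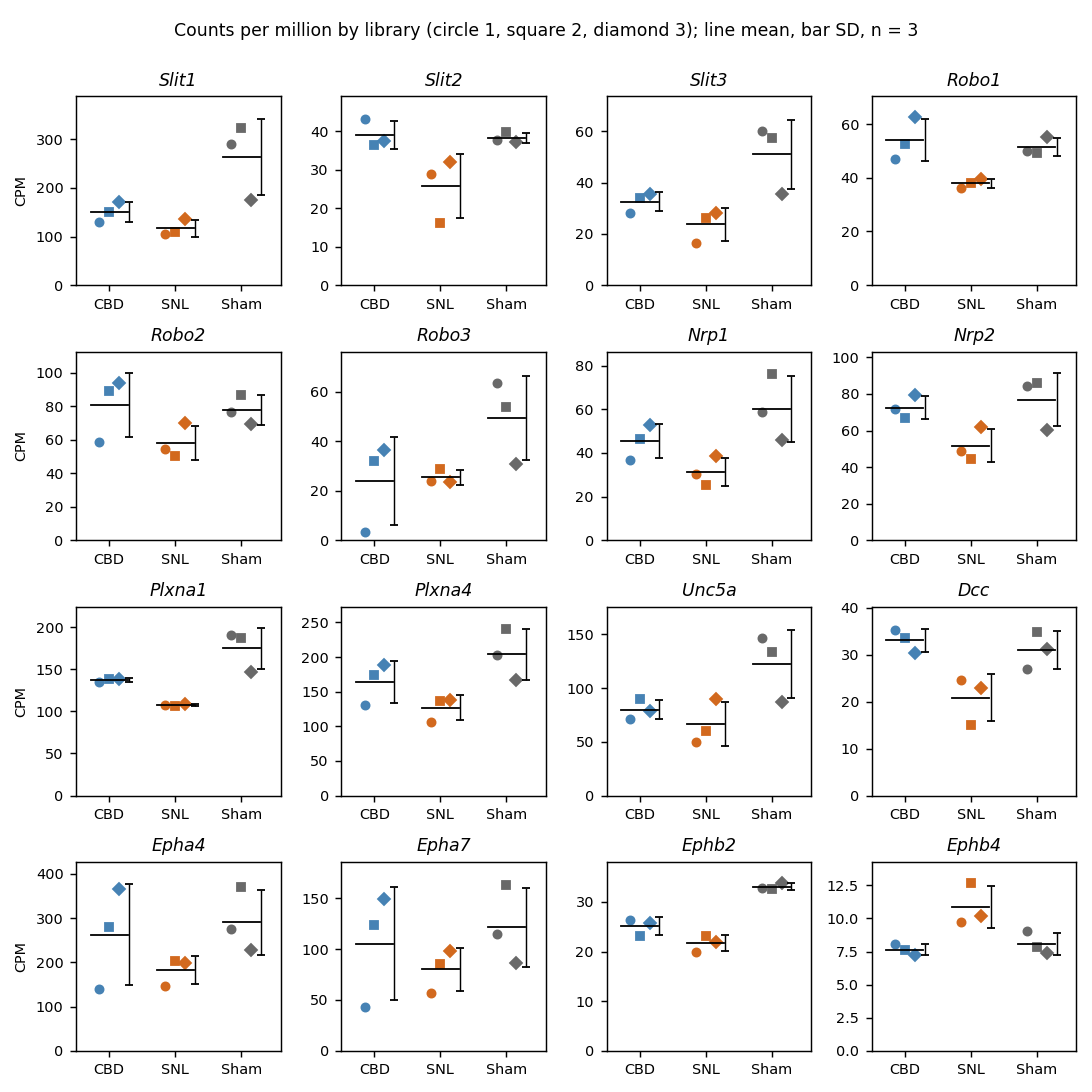
CPM in every library for 16 guidance genes, with CBD, SNL and Sham from left to right, axes from 0, lines at group means and bars of SD (n = 3). The SNL points of Plxna1 and Robo1 sit below all points of the other groups, and CBD 1 is the low point of Robo3, at 3.57 CPM.

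Of the 13 membrane semaphorins, 9 had log2 fold changes below 0 and 4 above, both for SNL against Sham and for CBD against SNL. For CBD against Sham 10 were below 0 and 3 above. Medians were -0.09, -0.23 and -0.25 in that order, and 48.4%, 50.1% and 49.9% of all genes were below 0. Sema6a (ENSMUSG00000019647), a ligand of Plxna2 and Plxna4, had 57.1, 46.9 and 50.4 CPM in CBD, 56.8, 76.8 and 47.7 CPM in SNL and 41.5, 33.8 and 46.5 CPM in Sham libraries. SNL 2 was the highest library, and all SNL and all CBD libraries lay above all Sham libraries. Its log2 fold change for SNL against Sham was 0.57 (SE 0.18, adjusted p = 0.250), and 0.24 without the 3 libraries with hypothalamic transcripts. Sema6b had 104, 85.9 and 93.6 CPM in CBD, 97.8, 120.1 and 123 CPM in SNL and 169, 144 and 118 CPM in Sham libraries. CBD lay below Sham throughout, at -0.60 (SE 0.15, adjusted p = 0.213), and at -0.20 with GC and length offsets. Sema6c had 19.1, 20.7 and 19.8 CPM in CBD, 29.6, 26.7 and 22.5 CPM in SNL and 30.7, 25.9 and 32.3 CPM in Sham libraries. The CBD libraries were the low ones against both other groups, at -0.40 (SE 0.13, adjusted p = 0.306) against SNL and -0.58 (SE 0.13, adjusted p = 0.213) against Sham, and at -0.28 and -0.26 with the offsets. Without the 3 libraries with hypothalamic transcripts the value against SNL was -0.15.

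Sema4g stood at 66.5, 43.3 and 46.1 CPM in CBD, 66.4, 85.2 and 55.9 CPM in SNL and 57.7, 35.6 and 52.9 CPM in Sham libraries, with overlap between all groups. Sema6d ran from 113 to 130.3 CPM in CBD, from 99.9 to 142 CPM in SNL and from 95.0 to 110.4 CPM in Sham libraries, so that CBD and Sham were apart, at 0.29 (SE 0.14, adjusted p = 0.343). None of the plexin-B, C and D receptors had an unadjusted p under 0.05 in SNL against Sham. Plxnb3, found in the oligodendrocyte lineage, had 51.0, 39.9 and 42.4 CPM in CBD, 50.0, 75.0 and 51.2 CPM in SNL and 51.1, 39.8 and 54.4 CPM in Sham libraries. SNL 2 was the high library, and it also had the highest myelin sum, 15069 CPM. The log2 fold change of CBD against SNL was -0.40 (SE 0.18, adjusted p = 0.364), and -0.19 without SNL 2. Plxnb1, the Sema4d receptor and the highest of these 5 per length, had log2 fold changes of -0.13 for SNL against Sham and -0.08 for CBD against SNL (SE 0.13 each). Plxnc1, the Sema7a receptor, had 69.5, 49.9 and 48.7 CPM in CBD and 54.1, 38.4 and 41.9 CPM in Sham libraries, which overlapped.

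Of the Eph receptors, Ephb2 (ENSMUSG00000028664), which clusters NMDA receptors at excitatory synapses, had 26.4, 23.1 and 25.8 CPM in CBD, 20.0, 23.2 and 21.9 CPM in SNL and 32.8, 32.6 and 33.9 CPM in Sham libraries. The Sham libraries were nearly equal and above all others, and CBD and SNL overlapped at CBD 2 and SNL 2. Its log2 fold change was -0.61 (SE 0.10, adjusted p = 0.193) for SNL against Sham and -0.40 (SE 0.10, adjusted p = 0.213) for CBD against Sham. Ephb4 (ENSMUSG00000029710), the venous endothelial receptor of Efnb2, had 8.07, 7.64 and 7.24 CPM in CBD, 9.75, 12.7 and 10.2 CPM in SNL and 9.03, 7.84 and 7.39 CPM in Sham libraries. SNL was above both other groups, at 0.43 (SE 0.16, adjusted p = 0.289) against Sham, and CBD stood at -0.51 (SE 0.16, adjusted p = 0.306) against SNL. The 16 endothelial and pericyte markers also summed to more in SNL, 749.8 to 995 CPM, than in Sham, 615 to 697 CPM, and their part in this was not tested.

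The receptors without kinase activity, Ephb6 and Epha10, were lower in CBD than in Sham. Ephb6 had 55.7, 55.0 and 52.4 CPM in CBD, 68.2, 50.5 and 62.7 CPM in SNL and 94.9, 78.8 and 67.7 CPM in Sham libraries. CBD lay below Sham, at -0.57 (SE 0.14, adjusted p = 0.213), and at -0.28 with GC and length offsets. SNL overlapped with both. Epha10 had 51.8, 55.7 and 48.2 CPM in CBD, 76.4, 59.0 and 62.5 CPM in SNL and 74.2, 66.1 and 74.5 CPM in Sham libraries. CBD was the low group against both others, at -0.34 (SE 0.12, adjusted p = 0.311) against SNL and -0.46 (SE 0.12, adjusted p = 0.213) against Sham. With the offsets Epha10 stood at -0.20 against Sham.

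Among the kinase-active EphA receptors, Epha4 (ENSMUSG00000026235) had 140.2, 281 and 366 CPM in CBD, 147, 204 and 198 CPM in SNL and 275, 371 and 227 CPM in Sham libraries. SNL lay below Sham, and CBD 1 was the lowest library of all, so that CBD spanned both groups. SNL against Sham stood at -0.67 on the log2 scale (SE 0.31, adjusted p = 0.369). Epha7, which binds ephrin-A ligands, had 42.7, 124 and 149.9 CPM in CBD, 56.8, 85.5 and 98.5 CPM in SNL and 115, 163 and 86.4 CPM in Sham libraries. CBD 1 and SNL 1 were the low libraries, and they also had the lowest hippocampal sums, 2329.7 and 2440.3 CPM. Epha6 had 13.2, 29.9 and 34.7 CPM in CBD, 17.0, 18.7 and 18.9 CPM in SNL and 33.1, 42.1 and 23.4 CPM in Sham libraries. SNL lay below Sham, at -0.85 (SE 0.31, adjusted p = 0.289), and CBD overlapped with both. Epha8 had 12.2, 12.8 and 11.9 CPM in CBD, 19.2, 25.9 and 16.4 CPM in SNL and 14.1, 5.91 and 17.4 CPM in Sham libraries. Every SNL library was above every CBD library, at -0.74 (SE 0.32, adjusted p = 0.352) for CBD against SNL, and -0.40 without the 3 libraries with hypothalamic transcripts. Epha5 had 86.2, 118 and 125 CPM in CBD, 87.5, 62.0 and 97.4 CPM in SNL and 105, 117 and 101 CPM in Sham libraries, with CBD 1 below SNL 1 and SNL below Sham. Epha1, at no more than 1.95 CPM in any library, stood higher in SNL than in Sham, at 1.38 (SE 0.44, adjusted p = 0.254).

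The ephrins, the ligands of these receptors, were less uniform. Efna1 had 4.76, 4.18 and 3.07 CPM in CBD, 5.60, 4.89 and 4.57 CPM in SNL and 3.11, 2.93 and 3.77 CPM in Sham libraries. SNL lay above Sham, at 0.62 (SE 0.22, adjusted p = 0.276), with CBD spread across both. Efna3 had 31.6, 36.2 and 36.9 CPM in CBD, 32.9, 34.0 and 41.2 CPM in SNL and 53.3, 53.9 and 39.7 CPM in Sham libraries. CBD was below Sham throughout, at -0.49 (SE 0.14, adjusted p = 0.213) and at -0.30 with GC and length offsets, whereas SNL 3 exceeded Sham 3. Efna2 had 4.49, 3.77 and 3.76 CPM in CBD, 4.67, 8.26 and 5.42 CPM in SNL and 6.22, 5.81 and 4.84 CPM in Sham libraries. CBD was the low group, at -0.61 (SE 0.23, adjusted p = 0.325) against SNL, at -0.33 without SNL 2, its highest library, and at -0.39 with GC and length offsets. Efna5 had 20.1, 8.98 and 7.88 CPM in CBD, 12.7, 10.6 and 8.23 CPM in SNL and 7.39, 5.36 and 9.48 CPM in Sham libraries. CBD 1 was the high library, and the log2 fold change of CBD against Sham of 0.73 (SE 0.35, adjusted p = 0.331) was 0.19 without the 3 libraries with hypothalamic transcripts. Efnb3, the most abundant member per length, ran from 146 to 219 CPM in CBD, from 178 to 219.7 CPM in SNL and from 197 to 224 CPM in Sham libraries. It had log2 fold changes of -0.09 for SNL against Sham, -0.16 for CBD against SNL and -0.26 for CBD against Sham (SE 0.15 each), and its groups overlapped. Efna4, left out by the filter on low counts, had 6, 7 and 8 expected counts in CBD, 8, 4 and 10 in SNL and 11, 8 and 2 in Sham libraries.

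**Figure D5:**
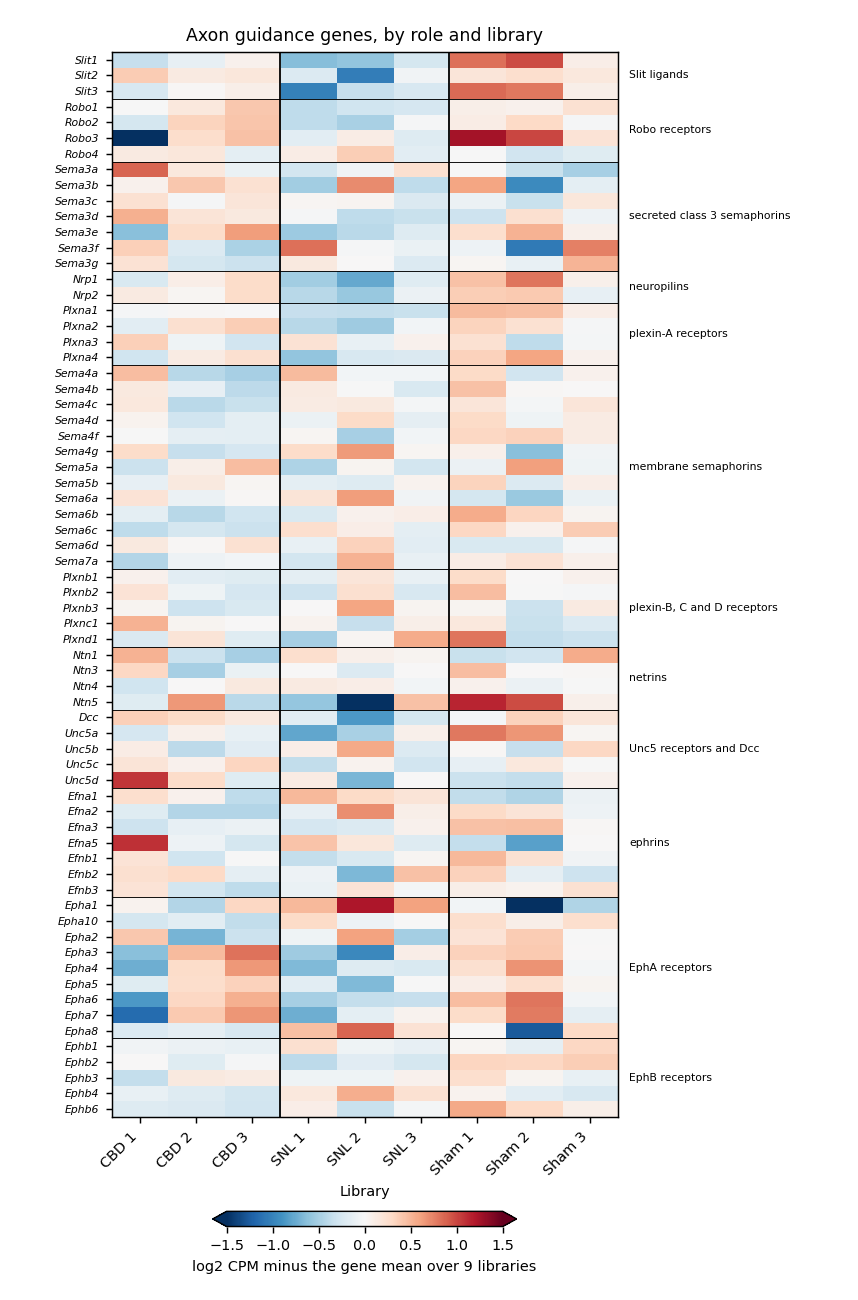
Log2 CPM of each of the 68 tested genes minus its mean over the 9 libraries (colour scale, blue below and red above the mean), with genes grouped by role down the page and libraries of CBD, SNL and Sham from left to right. The Slit, neuropilin and plexin-A rows other than Plxna3 are mostly blue in SNL and red in Sham 1 and Sham 2, and CBD 1 stands apart for Robo3, at 3.57 CPM, and Epha7, at 42.7 CPM.

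Other genes of the guidance pathway were taken from a pair of lists. Of 35 coreceptors and other cues, edgeR called 0 in each comparison at an adjusted p under 0.05. Unadjusted p-values under 0.05 were more frequent: 1 was higher and 9 lower in SNL than in Sham (28.6%, beside 13.8% of all genes), 7 were higher and 1 lower in CBD than in SNL (22.9%, beside 13.7%), and 5 were higher and 7 lower in CBD than in Sham (34.3%, beside 16.3%). Median log2 fold changes were -0.11, -0.01 and -0.03 in that order. Nrcam, an adhesion molecule that works with neuropilins, had 195, 216 and 234 CPM in SNL and 291, 328 and 275 CPM in Sham libraries, which did not overlap (log2 fold change -0.47, SE 0.13, adjusted p = 0.231). Ntng1, a membrane-anchored relative of the netrins that is abundant in the thalamus, had 85.2, 171 and 88.4 CPM in SNL and 70.0, 52.9 and 63.9 CPM in Sham libraries. SNL 2, its high library, was also the highest for the thalamic and habenular list, at 2227 CPM. Ntng1 is itself in that list and gave 171 of those CPM, so the list is not a separate measure. The cause was not tested. Its relative Ntng2 had 16.2, 18.4 and 26.3 CPM in SNL and 46.2, 37.6 and 25.1 CPM in Sham libraries, with a log2 fold change of -0.84 (SE 0.24, adjusted p = 0.232). Chl1, an adhesion molecule of the L1 family, had 165, 181 and 191 CPM in CBD and 133, 95.9 and 139.9 CPM in SNL libraries, which were apart (log2 fold change 0.54, SE 0.14, adjusted p = 0.306).

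Of 56 cytoplasmic effectors, edgeR also called 0 in each comparison. At an unadjusted p under 0.05, 7 were higher and 9 lower in SNL than in Sham (28.6%, beside 13.8% of all genes), 9 higher and 3 lower in CBD than in SNL (21.4%, beside 13.7%), and 4 higher and 3 lower in CBD than in Sham (12.5%, below the 16.3% of all genes), with medians of -0.03, 0.03 and -0.06. Abl2, an actin-regulating kinase downstream of several guidance receptors, had 80.2, 86.2 and 98.2 CPM in CBD, 67.5, 67.5 and 69.2 CPM in SNL and 99.6, 111 and 88.9 CPM in Sham libraries. SNL was below both other groups, at -0.56 (SE 0.11, adjusted p = 0.210) against Sham, and CBD stood at 0.37 (SE 0.11, adjusted p = 0.306) against SNL. Trio, the exchange factor that acts with Dcc, had 137, 175 and 159 CPM in SNL and 239, 226 and 188 CPM in Sham libraries, without overlap (log2 fold change -0.47, SE 0.13, adjusted p = 0.232).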

How the data were processed

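The deposited values are expected counts for each gene in each library, made by the authors with RSEM against GRCm39, per the submitters' processing notes; for the RSEM version, aligner and annotation the sources used here give nothing. Between 18.3% and 24.8% of a library's values were not whole, among them values of 26 guidance genes in some library, and all were rounded before testing. After filterByExpr, 17967 genes were fitted over all 9 libraries with edgeR 4.0.16 (R 4.3.3), using TMM scaling, 1 factor for the 3 groups and 6 residual degrees of freedom, with Benjamini-Hochberg adjustment over all of them. CPM are TMM-scaled. Chi-square per gene was 6.61 between CBD 2 and CBD 3 and at least 16.6 between any other pair of libraries. No library was therefore counted as a duplicate. By the same measure Sham 3 was farther from Sham 1 and Sham 2, at 32.8 and 33.1, than from any SNL or CBD library, at 16.6 to 31.6. Both comparisons with Sham rest in part on this library. DESeq2 1.42.0 and the other settings named below were alternatives; offsets for GC content and length were splines with 5 degrees of freedom on GENCODE M21 transcripts, which 98.2% of tested genes had. The guidance genes, marker lists and pathway lists were chosen with earlier results of these data known. Described were, per comparison, the 8 genes with the smallest p in each direction among those with a mean of at least 1 CPM, the leading members of each family per length, preset anchors, and a few others chosen after their values were seen. Counting error is covered by the count model only.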

Additional observations from a re-analysis of the deposited data

How the results depend on the processing

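For the 8 guidance genes with the smallest p in each direction of each comparison, none of 816 fold changes under the alternatives reversed, and 24 passed an adjusted p of 0.05. These genes were picked for a small p in the same data, and some alternatives leave out a library outside the comparison. Few reversals could therefore occur, and the count is no measure of robustness. Robo4, counted as not reversed, stood at 0.00 for SNL against Sham without the 3 libraries with hypothalamic transcripts. Small fold changes of other genes described did reverse, among them Plxna3, at -0.04 for SNL against Sham without Sham 2, Ntn1, at -0.07 without Sham 1, and Plxnb1, at 0.03 for CBD against SNL without SNL 2. For SNL against Sham, edgeR with no filter on low counts called 253 genes, 7 of them guidance genes, and DESeq2 called 363 and 7; offsets for GC content and length left 13 guidance genes lower at an unadjusted p under 0.05 and a median of -0.05, and the same with the replicate block 13 and -0.06. For CBD against SNL, no filter gave 1 gene called and 18 guidance genes higher, DESeq2 156 and 2 called, the offsets 4 higher and a median of 0.10, and offsets with the block 3 higher. For CBD against Sham, no filter called 56 genes, DESeq2 380 and 6 guidance genes, and a fit on only the 6 libraries compared 1 gene; the offsets left 3 lower and a median of -0.05, and offsets with the block 2 lower. The cause was not tested.

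Leaving out SNL 1, SNL 2 and CBD 1 together was chosen after seeing the data. It leaves 1 SNL library, assumed to vary like the other groups, and only CBD 2 and CBD 3, the most alike pair. It called 1 gene and left 8 guidance genes lower for SNL against Sham, 2 genes and 6 higher for CBD against SNL, and 20 genes and 17 lower for CBD against Sham. Leaving out 1 library at a time gave 0 to 8, 0 to 2 and 0 to 17 genes called in the 3 comparisons in that order. For SNL against Sham it gave 0 to 2 guidance genes called, Slit1 and Plxna1 without Sham 3, 14 to 24 lower, and a median of -0.21 to -0.09, -0.09 without Sham 1. For CBD against SNL it gave 6 to 15 higher, 6 without SNL 1 or CBD 3 and 7 without SNL 2 or CBD 2, and a median of 0.01 to 0.08. For CBD against Sham it gave 8 to 15 lower and a median of -0.20 to -0.09, the lowest without Sham 2.

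Correlations of deviations from group means ran from -0.27 to 0.19 for same-numbered libraries of different groups and from -0.27 to 0.31 for the other pairs. The numbers thus showed no sign of pairing, though 3 libraries per group cannot settle it. With the replicate block, 0 guidance genes were called in each comparison, 19 were lower for SNL against Sham (median -0.18), 10 higher for CBD against SNL (0.06) and 12 lower for CBD against Sham (-0.16). DESeq2 size factors changed none of the counts of genes called. Of the first 10 guidance genes per length, 6 stayed with the median transcript length.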
